A study of Mus musculus with 12 samples.

Results

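The NRF2 oxidative stress genes described here were 8 genes of the mouse: Nfe2l2, Keap1, Nqo1, Hmox1, Gclc, Gclm, Txnrd1 and Srxn1. They were selected by symbol, through the Ensembl identifiers in the deposited files and the GENCODE M21 annotation, out of 46078 genes in the files, and all 8 were among the 15823 genes with enough counts to be tested. RNA-seq was done on scraped epithelium of the proximal ileum from male C57BL/6 mice given TCDD, a dioxin that activates the aryl hydrocarbon receptor (AhR), and the series asked how expression in this tissue changed with dose. All mice were gavaged every 4 days with sesame oil, as vehicle or as carrier of 3, 10 or 30 µg/kg TCDD, 7 times from an age of 28 days, and were sampled at 56 days (day 28 of the study). Each of the 4 dose groups had 3 libraries. The study gives its n for these data in mice, as many as there are libraries in a group. The labels do not number the replicates, which are counted here in accession order, and tie no library to an animal, so the tests measure the spread between these libraries.

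NRF2, encoded by Nfe2l2, is the transcription factor that switches on the cell's defence against oxidants and electrophiles. KEAP1 holds it in the cytosol and marks it for degradation, and when electrophiles modify KEAP1, NRF2 accumulates, pairs with a small MAF protein and binds antioxidant response elements in its target genes. Control is thus largely at the level of the NRF2 protein, which counts of mRNA do not measure. Its targets include the quinone reductase NQO1, the heme-degrading enzyme HMOX1, both subunits of the enzyme that starts glutathione synthesis (GCLC and GCLM), thioredoxin reductase TXNRD1 and sulfiredoxin SRXN1. NQO1 is also a classical AhR target in the liver, which links this group to dioxin exposure.

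The promoters were searched for the core of the antioxidant response element, TGACNNNGC, and for the core of the dioxin response element that the AhR binds, GCGTG, on both strands. RefSeq promoter windows (GRCm38.p6, from 250 bases before to 50 after the transcription start) were found for 6 of the 8 genes, with 3 windows for Txnrd1, and none for Hmox1 and Gclc. The 3 stretches printed here are those in which an antioxidant response element core lay upstream of the start. They are written 5′ to 3′ on the strand of the gene with the matched bases in capitals, and with up to 20 bases on each side. The Nfe2l2 match reads along the gene, 240 to 232 bases upstream, at the edge of its window (chr2:75704875-75704913, minus strand). The Gclm match lies on the opposite strand 134 to 126 bases upstream (chr3:122245403-122245451, plus strand), and so does the Txnrd1 match, 92 to 84 bases upstream of the second of its 3 starts (chr10:82859094-82859142, plus strand).
Nfe2l2: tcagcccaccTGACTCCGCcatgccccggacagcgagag
Gclm: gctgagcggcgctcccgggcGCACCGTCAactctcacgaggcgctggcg
Txnrd1: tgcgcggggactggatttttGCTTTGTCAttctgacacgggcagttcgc

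A further match, in Srxn1, lay downstream of the start, and no antioxidant response element core occurred in the windows of Keap1 or Nqo1. That core was in 4 of the 8 windows of these genes and in 12.4% of 32851 promoter windows of the mouse. Counted by gene, it was in Nfe2l2, Gclm, Txnrd1 and Srxn1, and in 14.0% of 27025 genes with a window. The dioxin response element core was in 6 of the 8 windows, 3 of them of Txnrd1, and in 32.4% of all windows. Counted by gene, it was in Gclm, Keap1, Srxn1 and Txnrd1, and in 35.2% of the 27025 genes. It occurred 3 times in Gclm, 2 times in Keap1 and in Srxn1, and at least once in each Txnrd1 window, and it did not occur in the windows of Nqo1 or Nfe2l2. Nfe2l2 and Nqo1 had no such match, although their libraries, like those of Srxn1, separated from vehicle at 30 µg/kg, as given below. None of the genes was called, and a link of these matches to dose was not tested. The Srxn1 match upstream of the start is shown as an example, picked after the expression values were seen (chr2:152105410-152105454, plus strand, opposite-strand match 94 to 90 bases upstream).
Srxn1: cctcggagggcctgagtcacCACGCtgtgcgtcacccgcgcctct

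These are matches of letters in a short window and not measured binding sites, and elements farther from the start were not searched.

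None of the 8 genes was called at any dose. A call required an adjusted p under 0.05 in edgeR's quasi-likelihood test (Benjamini-Hochberg adjustment over all 15823 genes) together with a change of at least 1.5-fold. The count was 0 of 8 against vehicle at 3 µg/kg, where 0.228% of all genes were called, 0 of 8 at 10 µg/kg, where 0.613% were called, and 0 of 8 at 30 µg/kg, where 3.97% were called. At an unadjusted p under 0.05 the counts of the 8 were 0, 0 and 3, the last being Nqo1 and Nfe2l2 on the higher side and Srxn1 on the lower, against 21.6% of all genes. DESeq2 and limma-voom also called 0 of the 8 at each dose. The median log2 change of the 8 at 30 µg/kg was 0.00, beside -0.02 over all genes tested. As a check of exposure, Cyp1a1, the cytochrome P450 that serves as the standard AhR readout, lay at 18.9 to 27.5 CPM (a gene's counts scaled to library size) in the vehicle libraries and at 2605 to 3247 CPM at 30 µg/kg. Of 5 AhR targets, Cyp1a1, Cyp1b1, Ahrr and Tiparp were called at 30 µg/kg, with log2 changes of 7.01, 5.53, 3.85 and 1.38. Cyp1a2, named here after its values were seen, was not called (0.787 to 2.31 CPM in vehicle and 1.38 to 1.80 CPM at 30 µg/kg). At 3 µg/kg none of the 5 was called higher, Cyp1a1 lay at 22.2, 68.7 and 141 CPM, with the lowest library inside the vehicle range, and Cyp1a2, with 0 counts in all 3 libraries, was called lower.

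**Figure D1:**
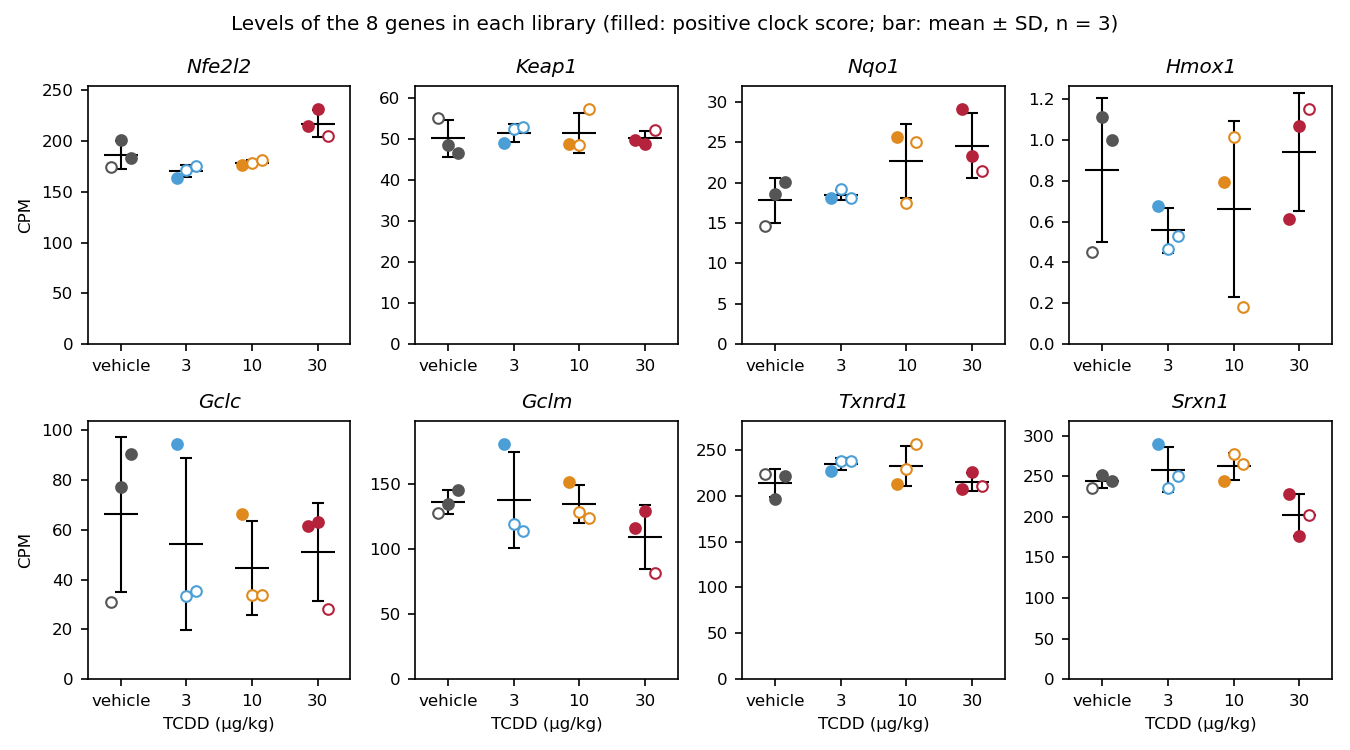
Level of each of the 8 genes in CPM (vertical axes, starting at 0) in the 12 libraries, by TCDD dose in µg/kg. Points are libraries, filled where the circadian clock score described in the text is positive; bars are the mean ± SD of 3 libraries. The 30 µg/kg libraries stand above vehicle for Nfe2l2 and Nqo1 and below it for Srxn1, and the Gclc points fall into a filled and an open set in every group.

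**Figure D2:**
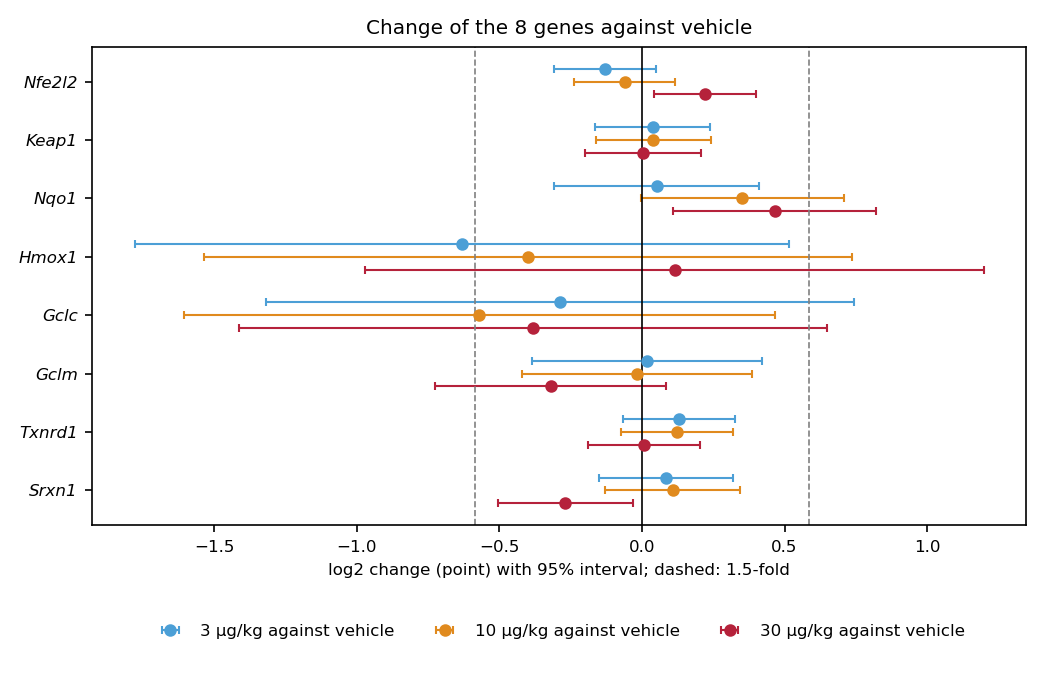
Log2 change against vehicle (horizontal axis) of the 8 genes at 3, 10 and 30 µg/kg TCDD. Points are edgeR estimates, bars are 95% intervals and dashed lines mark 1.5-fold. The estimates lie between -0.63 (Hmox1 at 3 µg/kg) and 0.47 (Nqo1 at 30 µg/kg), with the widest bars for Hmox1 and Gclc.

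Per kilobase of exon, the 8 genes spanned a wide range of expression in the untreated tissue. RPKM (CPM per kilobase of exon, computed here with exon lengths from GENCODE M21) is used for this comparison between genes. In vehicle Srxn1 had the highest level at 86.4 RPKM ± 2.94 (SD, n = 3), followed by Nfe2l2 at 49.1 ± 3.68, Txnrd1 at 30.2 ± 2.12 and Gclm at 21.6 ± 1.43. Gclc had 17.6 RPKM ± 8.29, Nqo1 11.5 ± 1.80 and Keap1 10.7 ± 0.950, and neither Gclc and Gclm nor Gclc, Nqo1 and Keap1 differed beyond their SDs. Hmox1 was at the bottom with 0.487 RPKM ± 0.201. At 30 µg/kg the order began the same, with Srxn1 at 71.7 RPKM ± 9.11 and Nfe2l2 at 57.2 ± 3.44. Below Txnrd1 (30.3 RPKM ± 1.37), Gclm had 17.3 ± 3.90, Nqo1 15.8 ± 2.57 and Gclc 13.5 ± 5.25, and these 3 did not differ beyond their SDs.

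Of the 2 regulators, neither passed the test at any dose. Nfe2l2 (ENSMUSG00000015839, chromosome 2, 75675513 to 75704641, minus strand), the transcription factor itself, had 174, 202 and 183 CPM in vehicle and 164, 172 and 176 CPM at 3 µg/kg. It had 176, 179 and 181 CPM at 10 µg/kg and 215, 231 and 205 CPM at 30 µg/kg. The libraries of 30 µg/kg were above every other library, and those of 3 and 10 µg/kg lay in the lower part of the vehicle range or below it. The log2 change was -0.13 (SE 0.08) at 3 µg/kg, -0.06 (SE 0.08) at 10 µg/kg and 0.22 (SE 0.08, adjusted p 0.14 in edgeR) at 30 µg/kg, the last with a 95% interval of 0.04 to 0.40. From 10 to 30 µg/kg it was 0.28 (SE 0.08, adjusted p 0.0731). In the F test over all 4 groups for any difference, which 6.78% of all genes passed, the adjusted p of Nfe2l2 was 0.0655, and it was under 0.05 with DESeq2 and when a trend with gene length and GC content was removed.

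The 30 µg/kg libraries, in which Nfe2l2 was highest, also differed from vehicle in other measures, not all of which set them apart from the lower doses. The summed CPM of 9 myeloid markers, all detected, was 92.7 to 94.4 at 30 µg/kg and 67.3 to 87.1 in vehicle, and that of 5 Paneth cell markers was 2068 to 2786 at 30 µg/kg and 657 to 998 in vehicle. The sum of 5 T cell markers was 65.7 to 76.8 CPM against 54.5 to 61.8 in vehicle, with 61.0 to 71.3 CPM at 10 µg/kg. That of 6 proliferation markers was 271 to 382 CPM against 213 to 256 in vehicle. It was 187 to 416 CPM at 3 µg/kg and 311 to 410 CPM at 10 µg/kg. At 30 µg/kg, 0 of 9 myeloid, 5 of 5 Paneth, 1 of 5 T cell and 0 of 6 proliferation markers were called higher, where 3.97% of all genes were called. Goblet cell sums overlapped (16221 to 17678 CPM against 12676 to 16585), with 3 of 6 markers called higher. Pancreatic acinar markers summed to 0.273 to 1.15 CPM at 30 µg/kg and 5.86 to 7.03 CPM in vehicle. Their sum was 0 to 0.117 CPM at 3 µg/kg and 1.77 to 1.88 CPM at 10 µg/kg. At 10 µg/kg the sum of 4 colon epithelium markers was 155 to 191 CPM, against 81.5 to 117 in vehicle. The share of reads outside annotated genes was 25.0% to 25.4% at 30 µg/kg and 28.0% to 30.1% in the other groups. The part of these measures in the differences of Nfe2l2, Nqo1 and Srxn1, and in the calls of further genes given below, was not tested. In scrapings, which hold several cell types, a change in the number of cells of a type and a change in RNA per cell cannot be told apart.

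Keap1 (ENSMUSG00000003308, chromosome 9, 21229730 to 21239361, minus strand), the sensor that keeps NRF2 low, had 55.2, 48.6 and 46.7 CPM in vehicle and 49.1, 52.4 and 53.0 CPM at 3 µg/kg. It had 48.8, 48.6 and 57.2 CPM at 10 µg/kg and 49.7, 48.9 and 52.3 CPM at 30 µg/kg. The groups overlapped at every dose. At 30 µg/kg its log2 change was 0.00 (SE 0.09, interval -0.20 to 0.21), and the sign turned under several settings. Keap1 shares exonic bases with the opposite-strand gene Gm16754, and since the strand setting of the counting is not given in the sources used here, reads of the pair cannot be told apart.

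Among the targets, Nqo1 had the highest estimate at 30 µg/kg. Nqo1 (ENSMUSG00000003849, chromosome 8, 107388225 to 107403206, minus strand) had 14.7, 18.6 and 20.1 CPM in vehicle and 18.2, 19.2 and 18.1 CPM at 3 µg/kg. It had 25.7, 17.5 and 25.1 CPM at 10 µg/kg and 29.1, 23.3 and 21.4 CPM at 30 µg/kg. All 3 libraries of 30 µg/kg and 2 of 10 µg/kg were above the highest vehicle library, while replicate 2 of 10 µg/kg lay inside the vehicle range. The log2 change was 0.05 (SE 0.17) at 3 µg/kg, 0.35 (SE 0.16, adjusted p 0.32 in edgeR) at 10 µg/kg and 0.47 (SE 0.16, adjusted p 0.12) at 30 µg/kg, with an interval of 0.11 to 0.82 at the last dose. Over the dose rank the fitted change across the whole range was 0.51 (SE 0.15, adjusted p 0.0749), in a test that called 3.29% of all genes. Adding the clock score described below as a covariate, the adjusted p at 30 µg/kg was 0.0448, the lowest of a range of 0.0448 to 0.346 over 23 alternatives.

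Hmox1 was close to the limit of detection. Hmox1 (ENSMUSG00000005413, chromosome 8, 75093621 to 75100589, plus strand), which degrades heme and is abundant in macrophages that clear red cells, had 8, 24 and 19 counts in the vehicle libraries and 9, 8 and 9 at 3 µg/kg. It had 11, 14 and 3 counts at 10 µg/kg and 12, 12 and 21 at 30 µg/kg. The lowest of these equals 0.184 CPM, the level of 3 counts in that library, and the highest level was 1.15 CPM. Groups overlapped at every dose, and the log2 change at 30 µg/kg of 0.11 (SE 0.50) had an interval of -0.970 to 1.198. No difference was detectable at this depth. The intervals and limits cover counting and library spread only, since the reads carry no molecular identifiers. The summed level of the 5 erythroid markers was at most 0.976 CPM in any library, with at least 2 of the 5 at 0 in every library of a group.

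Gclc, the catalytic subunit of glutamate-cysteine ligase, varied more between libraries than between doses. Gclc (ENSMUSG00000032350, chromosome 9, 77754535 to 77794485, plus strand) had 31.0, 77.0 and 90.6 CPM in vehicle and 94.4, 33.5 and 35.5 CPM at 3 µg/kg. It had 66.4, 33.7 and 33.9 CPM at 10 µg/kg and 61.7, 63.1 and 28.2 CPM at 30 µg/kg. Every group held both high and low libraries, with nothing between 35.5 and 61.7 CPM. The log2 changes were -0.29 (SE 0.47), -0.57 (SE 0.48) and -0.38 (SE 0.48) at 3, 10 and 30 µg/kg, and their intervals lay within -1.61 to 0.74. Leaving out 1 library at a time, the estimates ranged from -0.945 to -0.0168, from -0.968 to -0.27 and from -0.711 to -0.0825.

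The high and the low Gclc libraries differed in their circadian clock genes and in their enterocyte markers. A clock score was computed as the mean standardised log2 CPM of Dbp, Tef, Hlf, Nr1d1, Nr1d2, Per3 and Ciart minus that of Arntl, Npas2, Clock, Nfil3 and Cry1. It was between 1.26 and 2.07 in 6 libraries (vehicle replicates 2 and 3, the first replicate at 3 and at 10 µg/kg, and replicates 1 and 2 at 30 µg/kg) and between -2.32 and -0.53 in the other 6. Dbp, a clock output factor, was at 28.9 to 120.4 CPM in the first set and at 0.979 to 3.38 CPM in the second. Per the study's methods, all tissue was collected in the early light phase. The libraries with a positive score had 61.7 to 94.4 CPM of Gclc (median 71.7) and those with a negative score 28.2 to 35.5 CPM (median 33.6). The sets did not overlap, which held for 4.71% of all genes tested. As each dose group held libraries of both signs, it follows from this that Gclc was higher with a positive score in 4 of 4 groups. The sum of 11 enterocyte markers was also without overlap, at 56069 to 70878 CPM with a positive score and 47105 to 55899 CPM with a negative one, and its part in the levels of Gclc and Gclm was not tested. As the sets were defined from the data, no test was made.

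In a fit that held the clock score as covariate, Gclc changed on the log2 scale by 0.14 at 3 µg/kg, 0.06 at 10 µg/kg and -0.38 (SE 0.16, adjusted p 0.146 in edgeR) at 30 µg/kg, so the estimates at the lower doses turned sign and the SE at 30 µg/kg fell from 0.48. Among libraries with a positive score, those of 30 µg/kg had 61.7 and 63.1 CPM and that of 10 µg/kg had 66.4 CPM. These lay below the vehicle libraries of the same set (77.0 and 90.6 CPM) and that of 3 µg/kg (94.4 CPM). With a negative score the only 30 µg/kg library was the lowest, at 28.2 CPM, beside 31.0 CPM in the only vehicle library. The libraries of 3 µg/kg (33.5 and 35.5 CPM) and 10 µg/kg (33.7 and 33.9 CPM) in that set lay above the vehicle library.

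**Figure D3:**
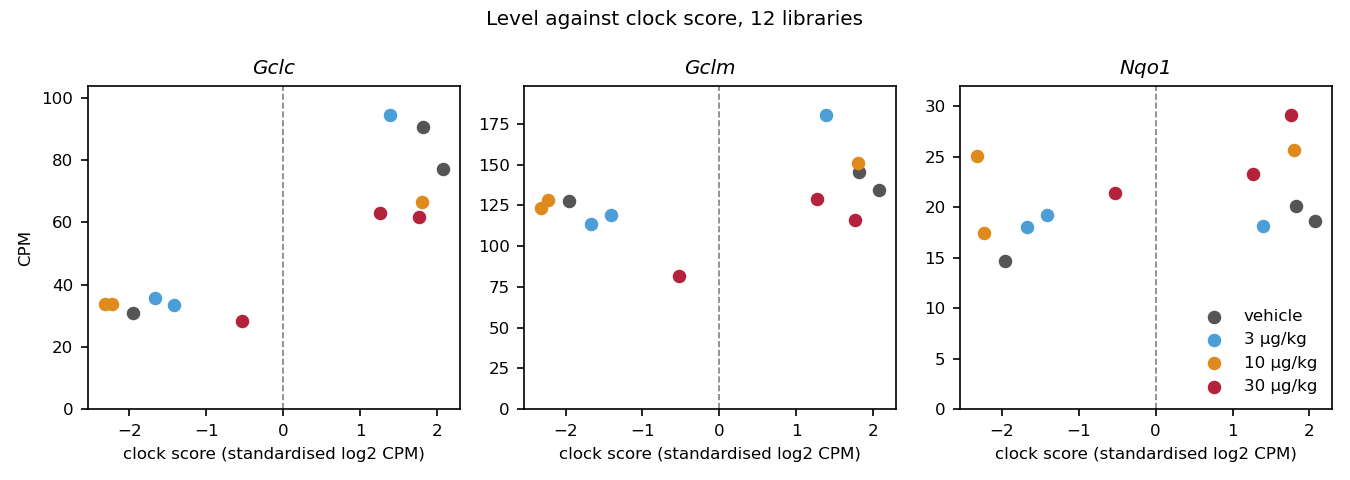
CPM of Gclc, Gclm and Nqo1 (vertical axes, starting at 0) against the circadian clock score of each of the 12 libraries, coloured by TCDD dose; the dashed line marks a score of 0. Gclc is at 61.7 to 94.4 CPM on the right of the line and at 28.2 to 35.5 CPM on the left, whereas Gclm and Nqo1 overlap between the sides. Within each dose, Gclm is higher on the right than on the left.

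Gclm, the modifier subunit of the same enzyme, showed the split less sharply. Gclm (ENSMUSG00000028124, chromosome 3, 122245557 to 122270732, plus strand) had 128, 134 and 146 CPM in vehicle and 180.2, 119 and 114 CPM at 3 µg/kg. It had 151, 128 and 123 CPM at 10 µg/kg and 116, 129 and 81.6 CPM at 30 µg/kg. The libraries of 30 µg/kg overlapped those of vehicle, with replicate 3 below every other library. Gclm had a median of 140 CPM with a positive clock score and 121 CPM with a negative one, but the sets overlapped (116 to 180.2 CPM and 81.6 to 128 CPM). Within each of the 4 dose groups, however, the libraries with a positive score were above those with a negative one. The share of all genes with that order is not given here. The medians of Nfe2l2, Nqo1, Hmox1 and Srxn1 were also higher with a positive score, with overlap. Keap1 and Txnrd1 ran the other way. Their medians at positive and negative scores were 48.9 and 52.7 CPM for Keap1 and 217 and 233 CPM for Txnrd1, and these sets overlapped too. The log2 change of Gclm was 0.02 (SE 0.19) at 3 µg/kg, -0.02 (SE 0.19) at 10 µg/kg and -0.32 (SE 0.19, adjusted p 0.346 in edgeR) at 30 µg/kg. The signs at the lower doses turned under other settings. Adding the clock score as a covariate in edgeR, the adjusted p at 30 µg/kg was 0.093, the lowest of a range of 0.093 to 0.707 over 23 alternatives. Gclm shares exonic bases with Gm17494 on the opposite strand and with Gm6061 on its own.

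Txnrd1 (ENSMUSG00000020250, chromosome 10, 82833951 to 82897712, plus strand), which reduces thioredoxin with NADPH, had 224, 197 and 221 CPM in vehicle and 227, 238 and 238 CPM at 3 µg/kg. It had 213, 229 and 256 CPM at 10 µg/kg and 207, 226 and 211 CPM at 30 µg/kg. The 3 µg/kg libraries lay above every vehicle library, by a narrow margin, and the higher doses overlapped vehicle. Txnrd1 was the 1 gene of the 8 without overlap at 3 µg/kg, where 15.4% of all genes had none. The log2 change was 0.13 (SE 0.09, adjusted p 0.613 in edgeR) at 3 µg/kg and 0.01 (SE 0.09), with an interval of -0.19 to 0.20, at 30 µg/kg. The last changed sign with another scaling.

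Srxn1 had its lowest levels at the highest dose. Srxn1 (ENSMUSG00000032802, chromosome 2, 152105516 to 152111376, plus strand), which repairs over-oxidised peroxiredoxins, had 235, 252 and 244 CPM in vehicle and 289.6, 236 and 250.3 CPM at 3 µg/kg. It had 245, 278 and 265 CPM at 10 µg/kg and 228, 177 and 202 CPM at 30 µg/kg. All 3 libraries of 30 µg/kg were below every library of the other groups. The log2 change was 0.08 (SE 0.11) at 3 µg/kg, 0.11 (SE 0.11) at 10 µg/kg and -0.27 (SE 0.11, adjusted p 0.173 in edgeR) at 30 µg/kg, with an interval of -0.50 to -0.03. From 10 to 30 µg/kg it was -0.38 (SE 0.11, adjusted p 0.0718).

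Across the 8 genes, 3 had no overlap between vehicle and 30 µg/kg libraries (Nfe2l2 and Nqo1 higher, Srxn1 lower), where 26.8% of all genes tested had none, and no gene of the 8 was without overlap at 10 µg/kg, where 22.9% were. Between 30 and 10 µg/kg, Nfe2l2 and Srxn1 were without overlap, against 28.2% of all genes, and 0 of the 8 were called, against 2.77%. Between 10 and 3 µg/kg, Nfe2l2 was without overlap, against 8.1% of all genes, and 0 of the 8 were called, against 0.158%. The margin of Nfe2l2 there was narrow, with 176.1 CPM as the lowest at 10 µg/kg and 175.9 CPM as the highest at 3 µg/kg. The estimates of the 6 target genes at 30 µg/kg were not all of the same sign. They were above 0 for Nqo1, Hmox1 and Txnrd1 and below 0 for Gclc, Gclm and Srxn1. Those of Hmox1 and Txnrd1 turned sign under other settings. The intervals of Hmox1, Txnrd1, Gclc and Gclm included 0, and those of Nqo1 and Srxn1 did not. As no target was called, these signs do not establish a direction for the targets.

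The genes whose log2 CPM ran closest to each of the 8 over the 12 libraries were mostly outside the pathway. Gclc lay closest to Ggt1, the gamma-glutamyl transferase that breaks down extracellular glutathione (Pearson r 0.979), then to Cdc42se2 and Nat8f5. Ggt1 was at 519 to 667 CPM in the libraries with a positive clock score and at 374 to 430.1 CPM in the others. Since the libraries formed separate sets by clock score, a value over all 12 holds both the gap between sets and the variation inside them. Nfe2l2 lay closest to Gm7861 (r 0.947) and the ribosomal protein genes Rps19 and Rplp1, Srxn1 to Dirc2 (r 0.967), Zyg11b and Stam2, and Nqo1 to Actg1 (r 0.914), Atp5g1 and Tmsb4x. For Gclm they were Rufy3 (r 0.950), Ubxn2a and Nek9, for Keap1 Tbrg1 (r 0.895), Trabd and Xbp1, for Txnrd1 Mga (r 0.866), Zbtb26 and Hadha, and for Hmox1 Igkv9-120 (r 0.897), Adgre4 and E4f1. These are the top values among 15823 genes, in libraries that differ in depth and dose, and carry no test.

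Other genes of the NRF2 system were taken from 8 lists with 114 genes, of which 110 were tested. None was called at 3 µg/kg, 2 were called at 10 µg/kg (Ugt1a6b and Sod1, both higher) and 9 at 30 µg/kg (8 higher and 1 lower), which was 8.18% of the 110 beside 3.97% of all genes. The lists were chosen with earlier results of these data known, so these shares are a description and carry no test of the lists. At 3 µg/kg DESeq2 and limma-voom called 0 as well. The median log2 change of the 110 genes at 30 µg/kg was 0.02. The 15 tested regulators and partners of NRF2, the 16 genes of glutathione synthesis and cycling, the 17 of the thioredoxin and peroxiredoxin system and the 7 of NADPH supply held no called gene at 30 µg/kg.

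**Figure D4:**
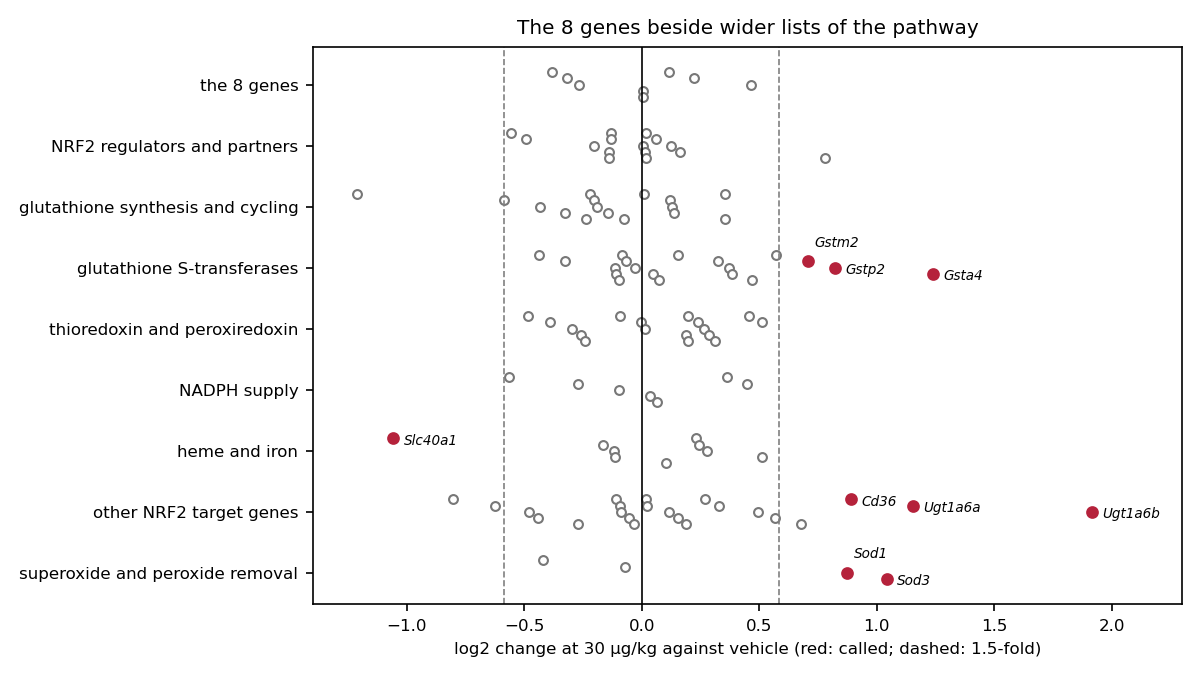
Log2 change at 30 µg/kg TCDD against vehicle (horizontal axis) of the 8 genes and of 110 further genes of the NRF2 system in 8 lists, 1 point per gene. Red points with names are called genes and dashed lines mark 1.5-fold; the called genes fall in the glutathione S-transferase, heme and iron, other target and superoxide removal lists, and none among the 8.

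In the superoxide and peroxide removal list, 2 of 4 genes were called higher at 30 µg/kg, where 3.97% of all genes were called. The estimates of the other genes, Sod2 and Cat, were not above 0, 1 of them with an unadjusted p under 0.05 in edgeR. Sod1, the cytosolic copper-zinc superoxide dismutase, had 143, 127 and 139 CPM in vehicle, 215, 179 and 134 CPM at 3 µg/kg, 241, 235 and 244 CPM at 10 µg/kg, and 228, 268 and 253 CPM at 30 µg/kg. The libraries of the upper doses were all above the 3 of vehicle, and the log2 change was 0.82 (SE 0.14, adjusted p 0.0184 in edgeR) at 10 µg/kg and 0.88 (SE 0.14, adjusted p 0.00267) at 30 µg/kg. The call at 10 µg/kg was lost in 6 of 23 alternatives (the library index as covariate, and without vehicle replicate 2 or 3 or any 1 library at 10 µg/kg), with a change of 0.77 to 0.86 over all 23. The call at 30 µg/kg was lost in 0 of them. Sod3, the extracellular form, rose from 2.24 CPM ± 0.359 (SD, n = 3) to 4.63 ± 0.606 at 30 µg/kg (log2 change 1.04, SE 0.24, adjusted p 0.0244), with 0.95 to 1.17 over 23 alternatives. That call was lost in 5 of them, namely with the library index as covariate and without vehicle replicate 1 or 2 or library 1 or 2 at 30 µg/kg.

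Among 19 tested glutathione S-transferases, which join glutathione to electrophiles, Gsta4, Gstp2 and Gstm2 were called higher at 30 µg/kg and none lower. Of all genes, 3.97% were called at that dose. The estimates of 11 of the 19 were above 0. Gsta4, which acts on lipid peroxidation products, had 8.90, 8.60 and 14.6 CPM in vehicle and 23.4, 31.7 and 21.0 CPM at 30 µg/kg, with no overlap and a log2 change of 1.24 (SE 0.21, adjusted p 0.004 in edgeR). The change of Gstp2 was 0.82 (SE 0.15, adjusted p 0.00537) and that of Gstm2 was 0.71 (SE 0.18, adjusted p 0.0342), with 0.61 to 0.85 over 23 alternatives. The call of Gstm2 was lost in 7 of them, namely with the library index as covariate, with the length and GC trend removed, and without vehicle replicate 2 or 3 or any 1 library at 30 µg/kg. These families have close paralogs, so how reads were divided among their members is uncertain.

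Of 23 further target genes, Ugt1a6b, Ugt1a6a and Cd36 were called higher at 30 µg/kg and none lower, where 3.97% of all genes were called. The estimates of 13 of the 23 were above 0. Of those below 0, 2 had an unadjusted p under 0.05 in edgeR. Ugt1a6b, a glucuronosyltransferase form that is also a known AhR target, had 2.48, 1.94 and 1.84 CPM in vehicle and 6.22, 9.14 and 8.37 CPM at 30 µg/kg (log2 change 1.92, SE 0.27, adjusted p 0.00103 in edgeR). Its change at 10 µg/kg was 1.66 (SE 0.27, adjusted p 0.0125), with 1.46 to 1.81 over 23 alternatives, a call lost without vehicle replicate 2 or 3 or the first library at 10 µg/kg. Ugt1a6a changed by 1.15 (SE 0.23, adjusted p 0.0116) at 30 µg/kg, and without vehicle replicate 3 its adjusted p was 0.0519. Both share exons with the other Ugt1a genes, so reads in the shared exons cannot be assigned to one of them. Cd36, a fatty acid transporter and scavenger receptor, changed by 0.89 (SE 0.22, adjusted p 0.0343), with 0.68 to 1.09 over 23 alternatives. That call was lost in 5 of them, namely with the robust fit and without vehicle replicate 2 or 3 or library 2 or 3 at 30 µg/kg.

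In the heme and iron list, Slc40a1 (ferroportin, the exporter of iron from the enterocyte) was the 1 gene of 9 called at 30 µg/kg, as lower. Of all genes, 3.97% were called at that dose. Slc40a1 had 8.45, 8.60 and 6.66 CPM in vehicle and 4.64, 4.08 and 2.68 CPM at 30 µg/kg, with no overlap and a log2 change of -1.06 (SE 0.22, adjusted p 0.0134 in edgeR). Leaving out either vehicle replicate 2 or the third library at 30 µg/kg removed that call, with changes of -1.25 to -0.85 over 23 alternatives. Fth1, the heavy chain of the iron store ferritin, rose between 10 and 30 µg/kg by 0.68 on the log2 scale (SE 0.15, adjusted p 0.02) but was not called against vehicle (0.51, SE 0.14, adjusted p 0.0571). Between the same doses Msrb1, a methionine sulfoxide reductase, rose by 0.69 (SE 0.13, adjusted p 0.0096), Sod3 by 1.17 (SE 0.25, adjusted p 0.0193), and Ugdh, which makes the glucuronic acid donor, fell by 0.68 (SE 0.14, adjusted p 0.0192).

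The largest estimates in 3 of the 4 lists without a call were not past the test. They were 0.78 (SE 0.24, adjusted p 0.0822 in edgeR) at 30 µg/kg for Maff, a small MAF partner of NRF2, -1.21 (SE 0.55, adjusted p 0.22) for Chac1, which degrades glutathione, and -0.56 (SE 0.32, adjusted p 0.325) for Me1, which supplies NADPH. Chac1 had 70 counts in vehicle replicate 1, but 15 and 22 in the other vehicle libraries and 10 to 16 at 30 µg/kg, and the groups overlapped in CPM. In the thioredoxin and peroxiredoxin list the largest was that of Msrb1, with 0.51 (SE 0.13, adjusted p 0.0323), which passed the p threshold below 1.5-fold. So did Txn1, thioredoxin itself, with 0.46 (SE 0.08, adjusted p 0.00576), Tkt, a transketolase, with 0.45 (SE 0.08, adjusted p 0.00546), and Sesn3, a sestrin, with -0.48 (SE 0.13, adjusted p 0.0424), which are named after their values were seen. In the split by clock score, 7 of the 110 further genes were higher without overlap in the libraries with a positive score (Slc3a2, Ggt1, Gsta3, Idh1, Akr1c13, Abcc2 and Trib3) and Prdx6 was lower, all 8 named after their values were seen, where 2.63% and 2.09% of all genes were.

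The total of counts assigned to genes was between 11695887 and 22180274 per library, so 3 counts equal 0.139 to 0.266 CPM. All 11 enterocyte markers were detected in each group, with a summed level of 47105 to 70878 CPM, and the markers of distal ileal enterocytes summed to 161 to 339 CPM. No 2 libraries of a group agreed within sampling noise. Reads in several places of the genome made up 36.2% to 38.8% of the total at 30 µg/kg and 31.4% to 34.6% in the other groups. The part of this shift in the comparisons at 30 µg/kg was not tested. Every dose held each of the 3 read indexes once. No sequencing date is given, so dose and a sequencing batch, had it followed dose, cannot be told apart.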

How the data were processed

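The deposited files hold raw counts of reads per Ensembl gene, made by the authors, 1 library per file and not normalised. The submitters' processing notes name FastQC 0.11.3, Trimmomatic 0.33, TopHat2 2.1.0, SAMtools 1.2.0, HTSeq 0.6.1, DESeq and build GRCm38. The annotation release and strand setting are not given in the sources used here. Entries for reads outside genes (25.0% to 30.1% of reads, as deposited), in several genes or in several places entered neither library sizes nor tests. Symbols, positions and exon lengths came from GENCODE M21, which matched 45229 of 46078 genes.

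Here edgeR 4.0.16 (R 4.3.3) was applied to the counts with filterByExpr, TMM scaling and 1 quasi-likelihood fit of 4 groups to all 12 libraries. Adjusted p-values follow Benjamini and Hochberg over 15823 genes, and a call needed an adjusted p under 0.05 and a change of 1.5-fold (for any difference, the p alone). Standard errors were derived from the F statistic, 95% intervals use the same degrees of freedom as the test, and log2 CPM used a prior count of 2. The test was tested on simulated data. Alternatives included DESeq2 1.42.0, limma-voom (limma 3.58.1), other scalings and filters, covariates and leaving out each library. All 8 genes are named, as are the further list genes called in any comparison, the gene of each list with the largest change at 30 µg/kg, 3 neighbours per gene by Pearson r and 4 AhR targets. The members and lists were chosen with earlier results of these data known.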

Additional observations from a re-analysis of the deposited data

How the results depend on the processing

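The count of 0 of 8 genes called held at 3, 10 and 30 µg/kg TCDD against vehicle in all 23 alternatives, and for the trend in 22. In the test of any difference it became 1 (Nfe2l2) with DESeq2 and 1 with the length and GC trend removed. The further list genes called were 6 to 10 at 30 µg/kg over the alternatives. At 10 µg/kg they numbered 0 to 3 over the alternatives, with 1 for the library index as covariate and 0 to 2 when 1 library was left out, being 0 without vehicle replicate 2, vehicle replicate 3 or replicate 1 of 10 µg/kg. Over all genes the count ranged from 6 to 162 at 3 µg/kg, 45 to 262 at 10 µg/kg and 434 to 881 at 30 µg/kg, from 9 to 43 for 10 against 3, 188 to 598 for 30 against 10, 297 to 722 for the trend and 562 to 2143 for any difference. The sign of some changes turned, and the cause was not tested. With the clock score as covariate the log2 changes were 0.135 (Gclc) and -0.00905 (Keap1) at 3 µg/kg, and 0.0588 (Gclc), 0.133 (Gclm) and -0.0206 (Keap1) at 10 µg/kg. With the length and GC trend removed they were -0.0763 (Gclm) and -0.00392 (Nqo1) at 3 µg/kg and -0.0137 (Keap1) at 30 µg/kg. Gclm at 3 µg/kg had -0.0167 with upper-quartile scaling, -0.0122 with the library index and -0.0111 with limma-voom. At 30 µg/kg Keap1 and Txnrd1 had -0.00239 and -0.000284 with DESeq2 size factors, -0.0147 and -0.013 with upper-quartile scaling, and -0.00137 and -0.000591 with DESeq2. Leaving out 1 library at a time, the changes that turned sign ranged from -0.0287 to 0.0998 (Keap1), -0.0791 to 0.13 (Nqo1), -0.227 to 0.141 (Gclm) and -0.0103 to 0.147 (Srxn1) at 3 µg/kg. The ranges at 10 µg/kg were -0.0976 to 0.00281 (Nfe2l2), -0.0397 to 0.123 (Keap1), -0.839 to 0.0727 (Hmox1) and -0.107 to 0.0431 (Gclm). At 30 µg/kg they were -0.0438 to 0.0849 (Keap1), -0.172 to 0.369 (Hmox1) and -0.0504 to 0.048 (Txnrd1). No paired analysis was possible because the labels give no replicate numbers. The read index, which occurs once per dose, is not stated to mark a shared animal or batch, and it was held as a covariate instead.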
